A study of Mus musculus with 2 samples.

Results

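The genes described here are 10 regulators of the ureteric bud, the epithelial tube that branches to form the collecting ducts of the kidney. They are Ret, Gfra1, Pax2, Pax8, Lhx1, Emx1, Emx2, Sim1, Etv4 and Etv5. They are 10 of the 30198 names that probes of the array carry. All probes of these names other than controls were taken, which gave 14 probes in 41 spots, of 41174 probes in all. The samples were collecting duct cells of adult mice, measured on 1-colour microarrays, 1 for wild type (WT) and 1 for the Gata2 conditional knockout (CKO). Cells were isolated with magnetic beads and the lectin DBA, which binds collecting duct epithelium, from mice of mixed sex and 8 weeks of age.

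The CKO genotype label is Gata2flox/-::Pax8-rtTA::Tet-Cre. It gives a floxed and a null allele of Gata2, so that cells outside the tubule also had a Gata2 allele fewer, and Cre under a doxycycline-dependent activator that is driven by the Pax8 promoter. Doxycycline was given for 4 weeks from 4 weeks of age to induce the deletion. The WT label names no transgene, and the labels do not say whether WT mice received doxycycline. The design text counts 3 mice of each genotype, yet each genotype has 1 array, and the labels do not state how the mice were combined. Every difference below is therefore between 2 arrays, without a replicate check and without a p-value, and does not show how much mice of a genotype vary. In RNA from a cell population, fewer cells of a type and less RNA per cell cannot be told apart.

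In the embryo, RET is the receptor tyrosine kinase of the ureteric bud tip, and GFRA1 is the co-receptor that presents the ligand GDNF to it. ETV4 and ETV5 are ETS transcription factors induced downstream of RET. The paired-box factors PAX2 and PAX8, the LIM-homeobox factor LHX1 and the homeobox factor EMX2 are needed for the nephric duct or the bud to form or grow. GATA2 and its relative GATA3 are zinc-finger transcription factors of the urogenital system.

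The probes are 60 bases long, and their place decides what each measured. Those shown lie in protein-coding sequence. Whether the others do, among them both Emx2 probes, was not checked, and they are not shown. The letters are those of the scanner files, 5′ to 3′. Capitals in Emx1 mark letters of the homeobox that encode the core of the DNA-recognition helix, and capitals in Pax2 mark a run of 8 G.
Emx1: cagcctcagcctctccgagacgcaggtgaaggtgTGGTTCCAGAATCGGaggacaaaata
Pax2: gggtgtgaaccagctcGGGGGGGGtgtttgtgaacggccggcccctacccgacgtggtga
Lhx1: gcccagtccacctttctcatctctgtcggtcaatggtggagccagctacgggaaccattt
Gfra1: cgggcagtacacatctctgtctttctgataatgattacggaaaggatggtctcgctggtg
The Emx1 probe joins exons, as its ends lie 9746 bases apart on mm9 (chromosome 6, 85144192 to 85153937), and so does that of Gfra1, over 767 bases (chromosome 19, 58313006 to 58313772). The Pax2 probe begins at base 50 of its transcript, in the paired box, and the files place its 60 bases on a span of 59 bases of mm9 (chromosome 19, 44835375 to 44835433). The Lhx1 probe lies at 84333091 to 84333150 on chromosome 11 and begins at base 2480. Homeobox and paired-box sequences are shared between relatives. No probe of another gene on the array shared 20 bases in a row with any of the 14 probes, but binding of RNA from a related gene was not tested.

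Of the 10 genes, 8 were well above background on both arrays, which were Gfra1, Pax2, Pax8, Lhx1, Emx1, Emx2, Sim1 and Etv4. Ret and Etv5 were well above background on neither array. In probes, 10 were well above background on both arrays, 1 on the CKO array only and 3 on neither. Levels below are log2 signals minus the 75th percentile of the array, which stood at 314 for WT and 250.0 for CKO, and differences are CKO minus WT of these levels. Spot errors come from the scanner software and cover single spots only.

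On this scale 7 of the 8 measured genes lay above 0 and 1 below, with a median of 0.21, where the median of all 18972 genes measured was 0.05 and 57.1% of them lay above 0. The count above 0 rests in part on Lhx1 at 0.01 and Sim1 at 0.04, as 5 of the 8 lay above the median of all genes. It was 6 of 8 with quantile normalization or scaling on the median of detected probes, and 5 of 8 with cyclic loess. None was 2-fold apart, in either direction, and 4.32% of all genes were. None reached 1.5-fold either, where 13.1% of all genes did. By more than their spot error, 5 of the 8 differed between the arrays, where 40.3% of the genes measured on both arrays did. Of the regulators, 4 were higher (Emx1, Gfra1, Pax2 and Emx2) and 1 was lower (Etv4), where 25.1% of the genes were higher and 15.3% lower by that rule. Pax8, Lhx1 and Sim1 lay within it. Scaling the arrays on 8 spike-in control transcripts moved all differences by −0.54 and put 7 of the 8 genes below 0, with a median of −0.33 where all genes had −0.50. Directions below are thus relative to the bulk of the genes.

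**Figure D1:**
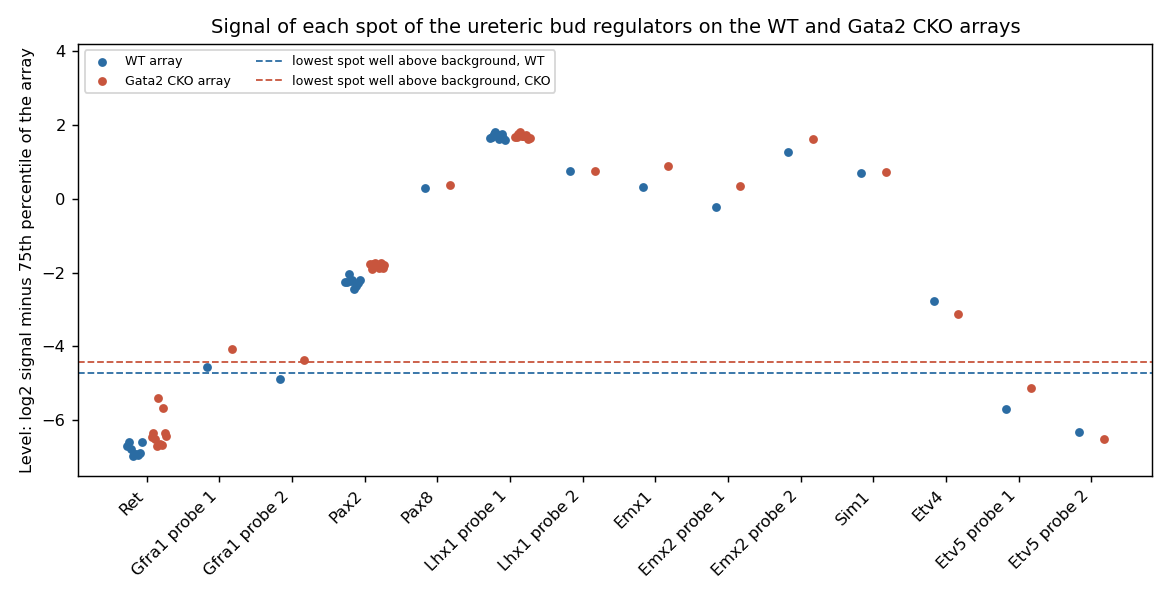
Level of each spot (log2 signal, relative to the 75th percentile) of the 14 probes, in order of gene and position in the transcript, for the WT and CKO arrays. Spots flagged by the scanner software are left out. Dashed lines mark the lowest spot well above background of each array, at −4.71 (WT) and −4.43 (CKO), and all spots of Ret and Etv5 lie below them.

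The receptor and its co-receptor were dim or undetected in these adult cells. The Ret probe (chromosome 6, 118103903 to 118103962), which the files assign to both RefSeq transcripts of Ret, was printed 10 times. The 9 spots used on the WT array had signals from 2.51 to 3.29, with a median of 2.67, which is the median of the negative control spots of that array too. The other WT spot, at 14.0, was flagged as an outlier. On the CKO array the 10 spots ran from 2.40 to 5.97 with a median of 2.89, where the negative controls had a median of 2.53. No spot of Ret was well above background, so the arrays set only an upper limit on Ret and give no difference.

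Gfra1 stood just above the detection limit, a signal of 12.0 for WT and 11.6 for CKO. Its exon-joining probe gave a signal of 13.2 in WT and 14.8 in CKO cells, a difference of 0.49 ± 0.42 (spot error). A probe nearer to the end of the transcript (chromosome 19, 58311604 to 58311663) gave 10.7 in WT, not well above background, and 12.1 in CKO cells, at least 1.27-fold higher. Both probes thus pointed upward, by an amount near their error. At these signals the probes printed repeatedly were at their most variable, with a median standard deviation of the difference of 0.605 between 3.74 and 24.5 of WT signal.

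Of the paired-box genes, each measured by a single probe, Pax2 lay beyond its spot error and Pax8 within it. Whether the genes differ from each other was not tested. Pax8, the gene whose promoter drives the Cre system of the CKO mice and a marker of the whole nephron epithelium, had signals of 387 in WT and 324 in CKO cells (chromosome 2, 24276785 to 24276844). Scaled to the arrays this was a difference of 0.07 ± 0.20, within the spot error, and it stayed between 0.03 and 0.07 over the settings other than spike-in scaling. The Pax8 probe does not measure the transgene that uses the promoter.

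Pax2 was higher on the CKO array by 0.45 ± 0.22, and by 0.31 to 0.47 over the settings other than spike-in scaling. This rests on its only probe, which holds the run of 8 G, and whether that run affects the signal was not tested. Its 9 spots used ran from 58.0 to 76.7 in signal on the WT array, with a median of 66.6, and from 67.4 to 75.2 on the CKO array, with a median of 72.5. As levels they lay between −2.44 and −2.03 on the WT array and between −1.89 and −1.73 on the CKO array, so that the spots of the arrays did not overlap once scaled, though they did as raw signals. All 9 spots were higher in CKO cells, by 0.28 to 0.62, with a standard deviation of 0.11. These spots share 1 RNA sample per array and are no replicates of the genotype.

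Lhx1, which encodes a LIM-homeobox factor of the nephric duct and early nephron, was level between the arrays by both of its probes. The 10 spots of the probe shown above had signals from 959 to 1106 in WT, with a median of 1024, and from 771 to 877 in CKO cells, with a median of 813. These raw signals did not overlap, but the 75th percentile of the CKO array was itself 79.6% of that of the WT array. As levels the spots overlapped almost in full, from 1.61 to 1.81 in WT and from 1.63 to 1.81 in CKO cells. The difference was 0.01 ± 0.04 (standard deviation over 10 spots), with 4 spots higher and 6 lower. The other probe, on chromosome 11 at 84331888 to 84331947, gave 533 and 423, a difference of −0.01 ± 0.20.

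The Emx genes are homeobox relatives of the fly gene empty spiracles. Of the 8 measured regulators, Emx1 had the largest difference on the 75th percentile scale, taking the brightest probe of each gene. It gave a signal of 395 in WT and 466 in CKO cells, so it was higher before scaling as well, and its difference was 0.57 ± 0.20, or 1.48-fold. Of the 17684 genes measured on both arrays, 1110, or 6.28%, were at least as high. Emx1 stayed between 0.50 and 0.57 over the settings other than spike-in scaling, where it came to 0.03.

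Emx2 was higher by both of its probes, which start 547 bases apart on chromosome 19. The one at 59538595 to 59538654 gave 269 in WT and 319 in CKO cells, a difference of 0.58 ± 0.20. The one at 59539142 to 59539201, the brighter, gave 754 and 766, a difference of 0.35 ± 0.20. The gap between these probes is no larger than is common here, since the standard deviation among probes of the same gene was 0.27 as a root mean square over 5308 genes. With spike-in scaling they came to 0.03 and −0.19.

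Sim1, a basic helix-loop-helix PAS factor that is best known from the hypothalamus and is also made in the nephric duct, was well above background in these adult cells. Its probe (chromosome 10, 50708865 to 50708924) gave a signal of 513 in WT and 418 in CKO cells. Scaled, the difference was 0.04 ± 0.20, within the spot error.

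The ETS factors, which read out RET signalling in the bud tip, were dim or undetected. Etv4 had a signal of 46.4 in WT and 28.9 in CKO cells (chromosome 11, 101631443 to 101631502), a difference of −0.36 ± 0.26, or 78.1% of the WT level, but it came to 0.09 with normexp background correction. Of the genes measured on both arrays, 9.97% were at least as low. Etv5 was below the limit by both of its probes, with signals of 6.10 and 3.97 in WT and of 7.10 and 2.76 in CKO cells. No difference is given for Etv5.

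**Figure D2:**
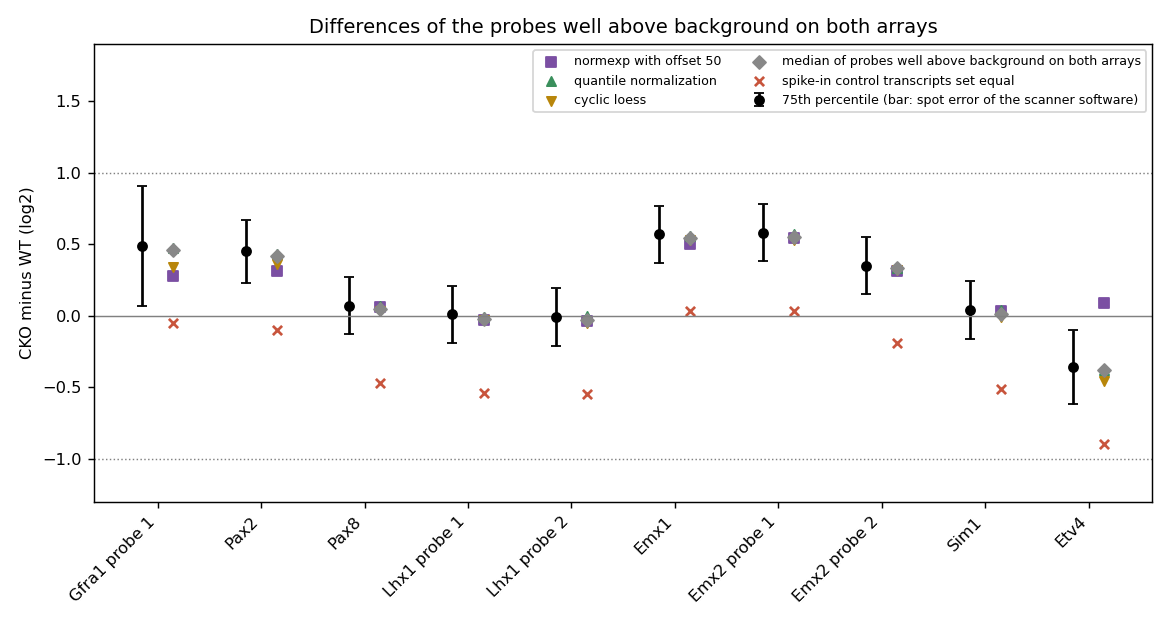
CKO minus WT (log2) of the 10 probes well above background on both arrays, with the spot error of the scanner software as bars and the value under other normalizations beside it. Dotted lines mark 2-fold. Emx1 and both Emx2 probes lie between 0.35 and 0.58 on the 75th percentile scale, the Lhx1 probes lie at 0.01 and −0.01, and with spike-in scaling the 10 probes lie between −0.90 and 0.03.

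The rest of the RET pathway was described by lists of genes. Of 7 GDNF family ligands and other co-receptors, 3 were measured. Neurturin, Nrtn, was at 0.27 ± 0.21, Gfra3 at −0.26 ± 0.40 and Gfra4 at −0.07 ± 0.23, and Gdnf, Artn, Pspn and Gfra2 were well above background on neither array. The adaptors and kinases that carry the signal of RET and of many other receptors were level by their brightest probes, with a median of 0.05, equal to that of all genes. Above 0 were 12 of 17 measured genes, where 57.1% of all genes were, and none was 2-fold apart. The farthest were phospholipase C gamma, Plcg1, at 0.29, Sos1 at −0.25 and Hras at 0.24. The other probes of Plcg1 and Sos1 gave 0.81 and 0.24, and that of Src gave 0.58, where its brightest probe gave −0.09.

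Genes that depend on RET in bud tips, together with feedback inhibitors of receptor tyrosine kinases, had a median of −0.34 over 14 measured genes, of which 6 lay above and 8 below 0. At least 2-fold lower were 3 of them, or 21.4%, where 2.84% of all genes were, and none was 2-fold higher. The kinesin gene Kif26b had signals of 811 in WT and 197 in CKO cells, a difference of −1.71 ± 0.21. It is known from the metanephric mesenchyme, so the share of 21.4% is not one of bud tip genes alone. The chemokine receptor gene Cxcr4 was at −1.19 ± 0.22, with −1.50 at its other probe. The inhibitor Spry1 was at −1.10 ± 0.20 (1415 and 525 in signal), and the ERK phosphatase gene Dusp6 was at −0.74 ± 0.20. In the same list Met, which encodes the HGF receptor, and Wnt11 were above 0, at 0.63 ± 0.20 and 0.66 ± 0.33, both named after their values were seen. Wnt11 was dim, with signals of 20.8 in WT and 26.2 in CKO cells. Its WT signal lay in the range where probes printed repeatedly varied most. The median of the list was −0.01 with normexp. These genes are used by many cell types, and most macrophage, podocyte, endothelial and fibroblast markers given below also lay below 0, whose part in these values was not tested.

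Other transcription factors of the ureteric duct lay close to all genes, with 8 of 11 above 0, a median of 0.12 and none 2-fold apart. Sox9 was at −0.81 ± 0.25, Elf5 at 0.47 ± 0.20, Tfap2b at −0.43 ± 0.20, with 0.09 at another probe, and Gata3 at 0.30 ± 0.20. Cofactors and antagonists of the 10 regulators had a median of −0.06 over 12 genes, 6 on each side of 0 and none 2-fold apart. Arnt2, a dimerization partner of SIM1, was at −0.75 ± 0.23. The cofactor genes Ssbp2 at −0.43, Lmo4 at −0.41 and Arnt at −0.26 followed, with other probes of Ssbp2 and Arnt up to 0.06 and 0.33. Of 16 paralogs only 2 were measured, Etv1, the ETS relative of Etv4 and Etv5, at −0.99 ± 0.21, and Pax7 at 0.41 ± 0.29. Pax7 was dim, with signals of 32.9 in WT and 34.8 in CKO cells.

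Ligands, receptors and matrix genes of branching had a median of −0.34 over 17 measured genes, with 6 above and 11 below 0. At least 2-fold lower were 3, or 17.6%, where 2.84% of all genes were. The BMP ligand gene Bmp4 was at −1.74 ± 0.23, Tgfb2 at −1.17 ± 0.24, the integrin gene Itga8 at −0.79 ± 0.24 and the angiotensin receptor gene Agtr1a at −0.73 ± 0.31, though its other probe gave 0.06. The third of the genes 2-fold lower was the BMP antagonist gene Grem1, with a signal of 334 in WT and of 10.6, not well above background, in CKO cells, which is at least 23-fold lower. Factors of the metanephric mesenchyme, the tissue that faces the bud, had a median of −0.54 over 9 measured genes, 4 above and 5 below 0, and a median of −0.07 with normexp. At least 2-fold lower were 3, or 33.3%, against the same 2.84% of all genes. Those 3 were the forkhead genes Foxc1 at −1.99 ± 0.22 and Foxd1 at −1.88 ± 0.28, and Wt1 at −1.70 ± 0.21, and Foxc2 was at −0.91 ± 0.31. Six2, Eya1 and Hoxd11 were well above background on neither array. Adult podocytes and stroma make several of these genes. Wt1 belongs to the podocyte markers below as well.

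**Figure D3:**
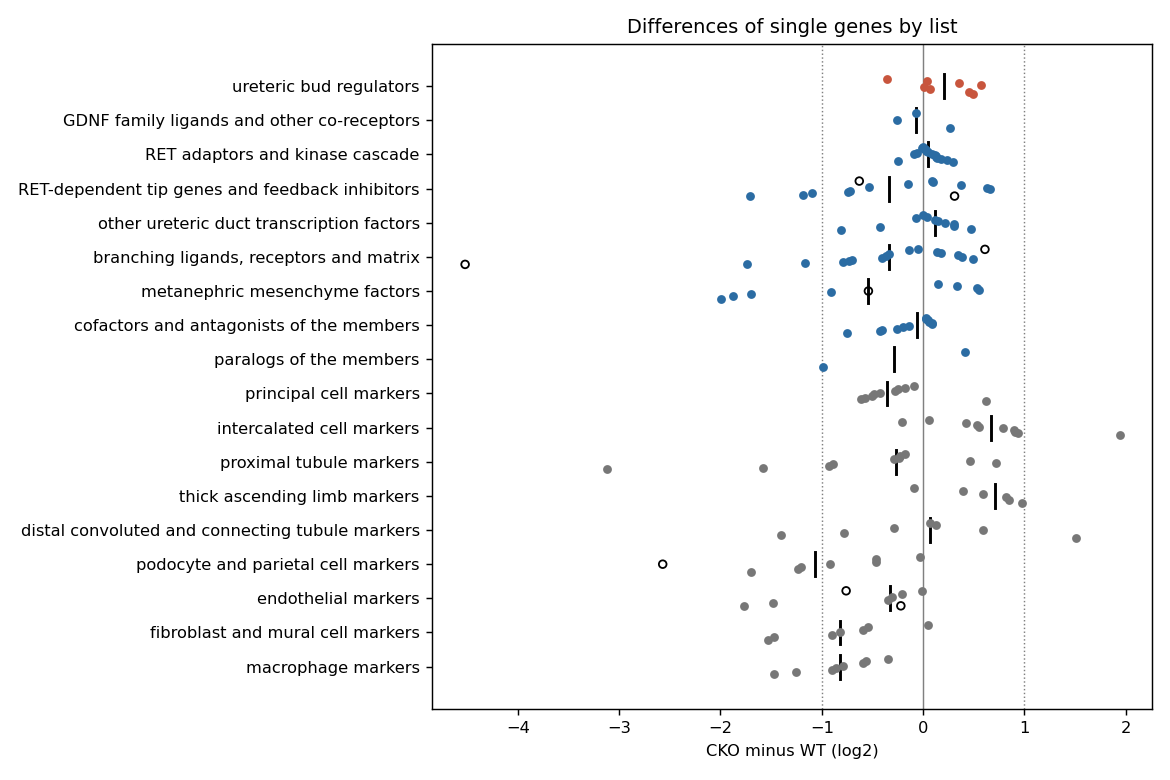
CKO minus WT (log2) of single genes, by list. Filled points are genes well above background on both arrays, open circles are bounds of genes measured on 1 array only, black bars are the medians of the lists and dotted lines mark 2-fold. The 8 regulators lie between −0.36 and 0.57. The list of RET-dependent tip genes and feedback inhibitors, that of branching genes and that of mesenchyme factors each hold 3 genes at least 2-fold lower.

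Markers of cell types differed between the arrays as well. The principal cell genes, among them the water channel and vasopressin receptor genes that define the type, were bright on both arrays, and 9 of 10 lay below 0, with a median of −0.36. Avpr2 was at −0.57, Hsd11b2 at −0.61 and Aqp4 at 0.62. Of the intercalated cell markers 9 of 10 lay above 0, with a median of 0.67, led by Atp6v1b1 at 1.94, Oxgr1 at 0.94 and Slc4a1 at 0.91. Oxgr1 was dim, with signals of 22.8 in WT and 34.8 in CKO cells. Sums over a list are linear, of signals divided by the 75th percentile of the array, so that the brightest genes weigh most in them. The sum over the principal cell list was 1158 in WT and 967 in CKO cells, and that over the intercalated cell list 390.0 and 455. All 8 macrophage, all 8 podocyte and parietal and all 8 endothelial markers lay below 0, as did 6 of the 7 measured fibroblast and mural ones. Of all 18972 genes, 7968 lay below 0. Cldn1, Pecam1 and Cdh5 count by bounds, as they were not well above background on the CKO array. Synpo at −0.03 ± 0.21, Tek at −0.01 ± 0.36, Flt1 at −0.21 ± 0.22 and Kdr at −0.31 ± 0.32 lay within their spot error. Another probe of Podxl gave 0.22. The medians of these lists, in the same order, were −0.82, −1.07, −0.33 and −0.82. With normexp, those of the podocyte, endothelial and fibroblast lists were −0.37, −0.04 and −0.53, and the podocyte median was −0.71 with the mean over a gene's probes. The linear sums of the lists, in the same order, were 86.9, 4.58, 1.69 and 24.1 in WT and 41.8, 2.78, 0.919 and 21.0 in CKO cells. Lyz2, with a signal of 18525 in WT and 6177 in CKO cells, made up most of the macrophage sum in WT. Of these lists only Pdgfra was measured on neither array. Itgam was at −1.47, Lyz2 at −1.25, Wt1 at −1.70, Vwf at −1.77 and Vim at −1.53. The CKO signals of Itgam and Vwf, 16.3 and 14.7, were near the detection limit of 11.6. Of the 6 thick ascending limb markers 5 lay above 0, with a median of 0.71, or 0.40 with normexp. Cldn16 was at 0.98, while the brighter Umod was at 0.39 and Slc12a1 at −0.09, with 0.47 at its other probe. Distal convoluted and connecting tubule markers had a median of 0.07 and lay on both sides of 0, with Klk1 at 1.51, Pvalb at −1.40 and Slc12a3 at −0.78. Pvalb had a CKO signal of 12.5, also near that limit. Of the 10 proximal tubule markers 8 lay below and 2 above 0, with a median of −0.27. Slc4a4 was at −3.12, with a CKO signal of 14.3, near the detection limit of 11.6. Aqp1, at 0.72, was the farthest above 0. What part the mixture of cells had in the differences of the 10 regulators was not tested.

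Gata2 itself was at −0.37 ± 0.20 and −0.32 ± 0.20 by its probes, or 77.3% and 80.4% of WT, with signals of 3943 and 3432 in WT and 2424 and 2194 in CKO cells. The deleted exons are not named in the labels, and if the deletion spared the sequence under these probes they are no check of the knockout. Emx1 lies 3.01 Mb from the Gata2 probes on chromosome 6 (mm9), and Ret lies 29.9 Mb from them. The labels name no strain, so the knockout and sequence inherited with its allele cannot be told apart. Within 10 Mb of Gata2, 165 genes were measured, with a median of 0.06. Of these, 3 passed 2-fold upward and 5 downward. That is 4.85% of them, against 4.32% of all genes. The farthest from 0 measured on both arrays were Mitf at −3.33, Atp6v1b1 at 1.94, Cyp26b1 at −1.54, Lrig1 at 1.29, Slc6a6 at −1.28 and Antxr1 at −1.13. Gfra1 and Emx2 also neighbour each other, 1.23 Mb apart on chromosome 19, whose 664 measured genes had a median of 0.07.

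**Figure D4:**
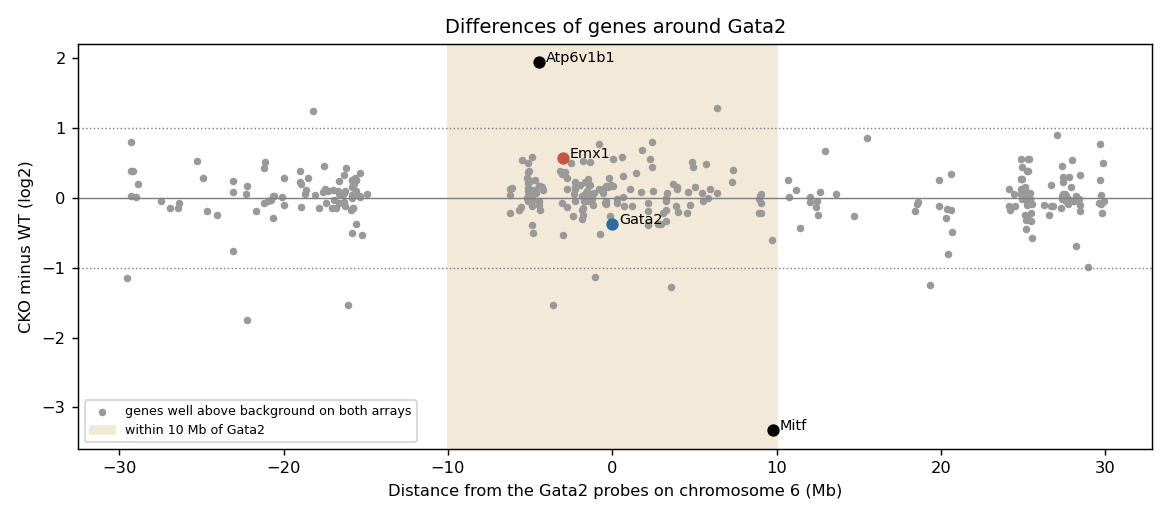
CKO minus WT (log2) of genes on chromosome 6 that were well above background on both arrays, by distance of their probe from the Gata2 probes in Mb. Only the stretch from −29.5 to 29.9 Mb is shown. The shaded band covers 10 Mb on each side and dotted lines mark 2-fold. Emx1, at 0.57, lies 3.01 Mb from Gata2 among genes that mostly lie within 2-fold.

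The 250 bases before each start site of the genes were searched for GATA sites, that is GATA with A or T before it and A or G after it, on both strands, in RefSeq windows on GRCm38.p6. For 8 of the 10 genes there were 11 windows, and 0 of them held such a site, while 26.5% of all 32851 windows did. Ret and Etv4 had no window in the table. The letters GATA alone, on either strand, occurred in 2 of the 11 windows and in 53.6% of all windows. The upstream windows ran from 45.6% (Sim1) to 75.6% (Emx1) G and C, with Emx2 at 67.2% and Gfra1 at 52.4%. The median over all windows was 52.4%. An absence of GATA sites from a short window shows nothing about binding elsewhere.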

How the data were processed

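Per the labels' protocols, the Cy3 label was put on RNA amplified from 50 ng per sample. The deposited files hold spot intensity on a linear scale from Agilent Feature Extraction 10.7.3.1, which, per the file headers, subtracted background, detrended the signal and placed probes on mm9. They also give the spot errors, flags of 0 or 1, and the mean and background signals before processing, from which normexp started. Both arrays shared a slide and a scan, 64.1% and 62.4% of spots were well above background and 0 were saturated. How the authors normalized between arrays: not given in the sources used here.

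From the deposited intensity the log2 signal minus the array's 75th percentile was taken, without control or outlier-flagged spots, and spots of 1 probe were averaged. A gene took its brightest probe well above background on at least 1 array. Probes measured on 1 array give a bound ("at least") against the lowest spot well above background or the dim probe's own signal, whichever is higher. RefSeq accessions of GRCm38.p6 named 26876 of 41174 probes and the file's name was kept otherwise. No test was run with 1 array per genotype, whose number limits the precision. The rule for named genes took all members with all probes, Gata2, up to 4 genes of each pathway list and up to 3 of each marker list with the largest difference on both arrays, and up to 6 such genes within 10 Mb of Gata2. Met, Wnt11, Umod, Slc12a1, Aqp1, Src, Synpo, Tek, Flt1 and Kdr, and genes measured on 1 array or neither, are named outside it. Some genes of the lists are not reported here by name. The members, lists and alternatives were chosen with earlier results of these data known. The steps were tested on simulated data, with changes larger than any of the regulators showed, in genes brighter than Gfra1, Pax2 and Etv4. Recovery of differences as small as those given here was not tested. Normalizations ran in limma 3.58.1 (R 4.3.3), all else in Python 3.11.15 using pandas 2.3.3, numpy 2.4.6 and matplotlib 3.10.9.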

Additional observations from a re-analysis of the deposited data

How the results depend on the processing

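The alternatives were cyclic loess, quantile normalization, normexp (offset 50), arrays set equal on 8 spike-in transcripts or on the median probe detected on both, flagged spots kept, a stricter or no filter on dim probes, averaging the probes of a gene, and a size of 1.5-fold. In each of these, 0 of the measured regulators were at least 2-fold apart, or 1.5-fold for the last. Spike-in scaling moved the median of the regulators to −0.33, that of their 10 probes to −0.33 and that of the genes near Gata2 to −0.48, because it shifts every gene alike. Against the median of all genes the regulators then lay at 0.17, as they did in the main setting. It also turned the sign of the brighter Emx2 probe to −0.19, of Gfra1 to −0.05, of Pax2 to −0.10, of Pax8 to −0.47, of Sim1 to −0.51 and of the brighter Lhx1 probe to −0.54. Without a filter on dim probes the median was 0.40 over all 10 regulators, where that of all genes was 0.15. Normexp turned Etv4 to 0.09. Its offset of 50 exceeds the Etv4 signals of 46.4 in WT and 28.9 in CKO cells. An offset of that size shrinks differences of dim probes by construction, so normexp cannot decide their size, in the lists with dim genes either. The cause of the turn in sign was not tested. The split of genes at least 2-fold higher and lower was 282 and 538, but 65 and 204 with normexp, 206 and 642 with cyclic loess, 60 and 1633 with spike-in scaling and 1215 and 1241 with no filter on dim probes. Signal over background limits Ret, Etv5, Gfra1 and Etv4. No paired analysis was possible because each genotype has 1 array.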
